A study of Mus musculus with 16 samples.

Results

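The 10 genes described here are 9 Toll-like receptors (Tlr1, Tlr2, Tlr3, Tlr4, Tlr6, Tlr7, Tlr8, Tlr9 and Tlr13) and Cd14, out of the 24421 genes listed in the count tables. They were taken by symbol and not by a cutoff on their values, although earlier results of these data were known. All 10 had enough counts to be among the 9642 genes tested. The libraries were made from total RNA of CD11b+ cells sorted from subcutaneous MC38-Ova tumours, an ovalbumin-expressing colon carcinoma line, grown in Kaede mice on the C57BL/6 background that received no treatment (labelled Control). Kaede is a fluorescent protein that light turns permanently from green to red, so that after photoconversion of a tumour its Kaede-red cells are those already present at that moment and its Kaede-green cells have arrived since. The 4 groups were each colour at 24h (MG24 for Kaede-green, MR24 for Kaede-red) and at 72h (MG72, MR72) after photoconversion, with 4 libraries in each group. All groups shared the same host, tumour and sort gate (live, CD45+, Kaede+, CD11b+, negative for TER119 and NK1.1), and the labels give neither the animal behind each library nor its age, so p-values measure the spread between libraries.

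Toll-like receptors are membrane proteins with which macrophages and other myeloid cells detect microbial molecules and debris of dying cells. One set sits at the cell surface and binds lipids and lipoproteins, and another set sits in endosomes and binds nucleic acids. Once engaged they recruit the adaptor MyD88 or TRIF, and the signal runs through IRAK kinases and TRAF ubiquitin ligases to NF-κB, AP-1 and IRF transcription factors, which switch on inflammatory cytokine genes. In tumours such receptors can respond to nucleic acids and other material released by dead tumour cells.

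Total counts ranged from 3216858 to 15423085 per library, but the ribosomal RNA gene Rn45s took 79.0 to 93.4% of them in Kaede-green and 55.8 to 84.9% in Kaede-red libraries. Outside Rn45s, 468092 to 912689 counts remained in Kaede-green and 758192 to 5472477 in Kaede-red libraries, so the Kaede-green values of the low receptors rested on few reads. Kaede-red 24h replicates 3 and 4 and Kaede-green 72h replicate 4 stood apart from their groups, with Rn45s shares of 83.1, 84.9 and 79.0%. Levels are given as CPM (counts scaled to a common library total with edgeR's TMM factors), and a gene was called when edgeR's quasi-likelihood test gave a Benjamini-Hochberg adjusted p under 0.05 over all genes tested. The myeloid markers Ptprc, Itgam, Csf1r, Adgre1, Cd68 and Lyz2 were present in every library and summed to 465 to 1945 CPM, of which Lyz2 alone gave 220 to 1632 CPM, and Adgre1 was the lowest with 11.4 to 57.4 CPM. The B cell, T and NK cell, and epithelial marker lists each summed to at most 4.08 CPM, but fibroblast markers reached 49.8, endothelial markers 36.6 and neutrophil markers 22.3 CPM, although the gate required CD45.

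The endosomal receptors for nucleic acids held the greater part of the Toll-like receptor transcripts, and Tlr9 and Tlr13 led them. Per kilobase of exon, the 9 receptors could be compared with each other and with Cd14. In Kaede-green cells at 24h, Cd14 stood first with 16.7 ± 1.12 CPM per kb (SD, n = 4), above Tlr2 (8.35 ± 3.07), Tlr9 (7.25 ± 2.88) and Tlr13 (6.79 ± 1.48), and the libraries of these 3 receptors overlapped. Tlr4, Tlr7, Tlr1 and Tlr8 followed between 1.59 and 2.32 CPM per kb, and Tlr3 (0.83) and Tlr6 (0.80) were lowest. The same order of blocks was seen in Kaede-red cells at 24h, with Cd14 at 14.2 ± 1.87, and in Kaede-green cells at 72h, with Cd14 at 12.2 ± 1.13 CPM per kb.

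In Kaede-red cells at 72h the order was different. Tlr9 came first with 21.1 ± 3.52 CPM per kb (SD, n = 4), and its libraries did not overlap those of the next gene, Tlr13 (13.8 ± 1.38), which in turn could not be separated from Cd14 (13.6 ± 3.20). Tlr7 (6.08 ± 0.75) lay close below Tlr2 (7.65 ± 1.06), with overlapping libraries. Of the summed CPM per kb of the 9 receptors, Tlr9 held 33.7 ± 3.09% in Kaede-red cells at 72h, against 19.4 ± 1.87% in Kaede-red cells at 24h, 22.4 ± 4.14% in Kaede-green cells at 24h and 21.9 ± 8.39% in Kaede-green cells at 72h. Kaede-green 72h replicate 4 was the exception among the remaining libraries, with 33.3%, inside the 30.5 to 37.5% of the Kaede-red 72h libraries.

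**Figure D1:**
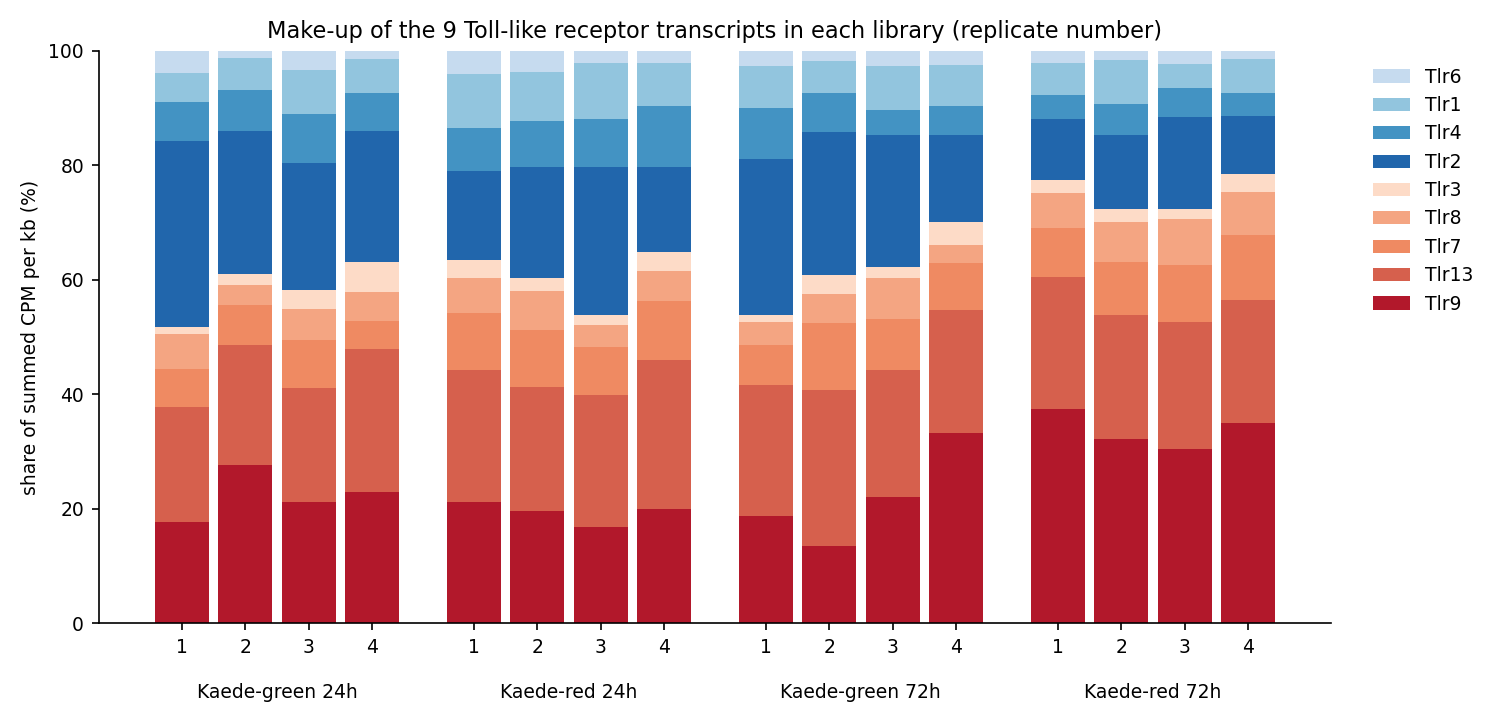
Share of each Toll-like receptor in the summed CPM per kilobase of the 9 receptors (y axis, %), with 1 stacked bar per library ordered by group and replicate number. Red shades are endosomal and blue shades cell-surface receptors. The Tlr9 segment takes 30.5 to 37.5% in the Kaede-red 72h libraries and 16.7 to 21.2% in the Kaede-red 24h libraries.

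Kaede-red cells had higher levels of most of these receptors than Kaede-green cells over the 24h and 72h libraries combined. Of the 10 genes, 6 were called higher (Tlr8, Tlr7, Tlr9, Tlr1, Tlr13 and Tlr4) and 0 lower, while 9.96% of all tested genes were called higher and 10.3% lower. Their log2 fold changes had a median of 0.69, against 0.06 over all tested genes. None of the 10 separated all 8 Kaede-red from all 8 Kaede-green libraries, as 1.19% of all genes did upwards and 1.74% downwards.

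Among the endosomal receptors, Tlr9, the sensor of DNA rich in unmethylated CpG, had 21.7, 40.1, 21.2 and 18.0 CPM in the Kaede-green libraries at 24h and 34.7, 31.0, 20.3 and 20.4 in the Kaede-red ones. At 72h it had 19.3, 11.3, 20.4 and 44.6 CPM in Kaede-green libraries and 86.9, 72.2, 57.5 and 77.1 CPM in Kaede-red libraries. All 4 Kaede-red 72h libraries lay above each of the other 12, and the 24h colours overlapped. The share of all tested genes above the other 12 in this way was not computed, here or for the receptors below. Over both times Tlr9 was higher in Kaede-red cells by 0.85 ± 0.20 on the log2 scale (SE, edgeR quasi-likelihood test with Benjamini-Hochberg adjustment, adjusted p = 0.00269).

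Tlr13, which detects a stretch of bacterial ribosomal RNA, had 30.6, 37.6, 24.5 and 24.1 CPM in Kaede-green libraries and 46.7, 42.5, 34.6 and 32.8 CPM in Kaede-red libraries at 24h. At 72h it had 29.5, 28.0, 25.3 and 35.5 CPM in Kaede-green libraries and 66.1, 60.2, 51.6 and 59.0 CPM in Kaede-red libraries. The colours overlapped at 24h and not at 72h, and the lowest Kaede-red 72h library lay above the highest of the other 12 (46.7 CPM). The difference over both times was 0.72 ± 0.14 (edgeR, adjusted p = 0.000252).

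Tlr7, a receptor for single-stranded RNA and its breakdown products, had 9.47, 11.9, 9.95 and 4.49 CPM in Kaede-green libraries and 19.3, 18.5, 11.9 and 12.4 CPM in Kaede-red libraries at 24h. At 72h the values were 8.38, 11.6, 9.72 and 13.0 CPM in Kaede-green libraries and 23.2, 24.6, 22.3 and 29.2 CPM in Kaede-red libraries. Tlr7 was the 1 gene of the 10 whose Kaede-red libraries all lay above the Kaede-green ones at each time. At 24h the margin was small, with 11.95 CPM in Kaede-red replicate 3 (66 counts) and 11.85 CPM in Kaede-green replicate 2 (29 counts). The difference of Tlr7 over both times was 1.00 ± 0.18 (edgeR, adjusted p = 6.89e-05). Tlr8, its neighbour on chromosome X and a related RNA sensor, ranged from 4.08 to 7.80 CPM in Kaede-green libraries and from 4.89 to 11.0 CPM in Kaede-red libraries at 24h. At 72h Tlr8 had 4.37, 4.26, 6.81 and 4.15 CPM in Kaede-green libraries and 14.6, 16.4, 15.4 and 17.3 CPM in Kaede-red libraries, with no overlap. Its difference over both times was 1.10 ± 0.20 (edgeR, adjusted p = 0.000167), on 10 to 28 counts per Kaede-green library.

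Tlr3, the endosomal sensor of double-stranded RNA, stayed low, with 1.82 to 8.04 CPM in Kaede-green libraries and 3.08 to 9.98 CPM in Kaede-red libraries, which overlapped. Its difference of 0.58 ± 0.26 was not called (edgeR, adjusted p = 0.111), but it was called without Kaede-green 72h replicate 4, the highest Kaede-green library (0.87, adjusted p = 0.0167). Of its exonic length, 7.32% also belongs to the antisense gene Gm45542, and whether reads were counted by strand was not given in the sources used here.

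Of the cell-surface receptors, Tlr1, which pairs with Tlr2 to bind lipoproteins, had 4.49 to 7.77 CPM in Kaede-green libraries and 7.35 to 15.1 CPM in Kaede-red libraries at 24h. At 72h it had 4.57 to 9.08 CPM in Kaede-green libraries and 12.6, 16.5, 7.40 and 12.5 CPM in Kaede-red libraries, where replicate 3 fell among the Kaede-green values. Tlr1 was higher in Kaede-red cells by 0.84 ± 0.20 over both times (edgeR, adjusted p = 0.00288). Tlr6, the alternative partner of Tlr2, had a difference of 0.67 ± 0.30 that was not called (edgeR, adjusted p = 0.108), on 3 to 14 counts per Kaede-green library. Tlr1 and Tlr6 lie side by side on chromosome 5, and 454 stretches of 50 bases, 14.8% of those in the Tlr1 transcripts, also occur in Tlr6, so that reads may have been lost or split between them.

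Tlr4, the receptor for lipopolysaccharide, had 13.4, 16.3, 13.8 and 8.16 CPM in Kaede-green libraries and 19.4, 20.4, 16.3 and 17.3 CPM in Kaede-red libraries at 24h. At 72h the values were 14.9, 9.14, 6.32 and 11.2 CPM in Kaede-green libraries and 15.5, 19.1, 15.4 and 14.3 CPM in Kaede-red libraries. The colours nearly separated at each time, with 1 library overlapping in each case. The difference was 0.58 ± 0.17 over both times (edgeR, adjusted p = 0.0135), and it lost its call without Kaede-green 72h replicate 3, the lowest library (0.47, adjusted p = 0.0514).

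Tlr2 and Cd14 did not share this difference. Tlr2 had 15.5 to 34.5 CPM in Kaede-green libraries and 13.2 to 27.2 CPM in Kaede-red libraries at 24h, and 17.6 to 24.4 against 19.5 to 26.3 CPM at 72h. Its log2 difference over both times was 0.03, with a 95% interval from -0.32 to 0.38 (edgeR, adjusted p = 0.921). Cd14, the lipid-anchored co-receptor that hands lipopolysaccharide to Tlr4, had 26.7, 30.7, 30.4 and 27.7 CPM in Kaede-green libraries and 27.8, 27.0, 21.4 and 22.3 CPM in Kaede-red libraries at 24h. At 72h it had 18.6 to 23.3 CPM in Kaede-green libraries and 17.1 to 30.5 CPM in Kaede-red libraries, with overlap at both times. Its difference of -0.05 had a 95% interval from -0.33 to 0.24 (edgeR, adjusted p = 0.861).

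**Figure D2:**
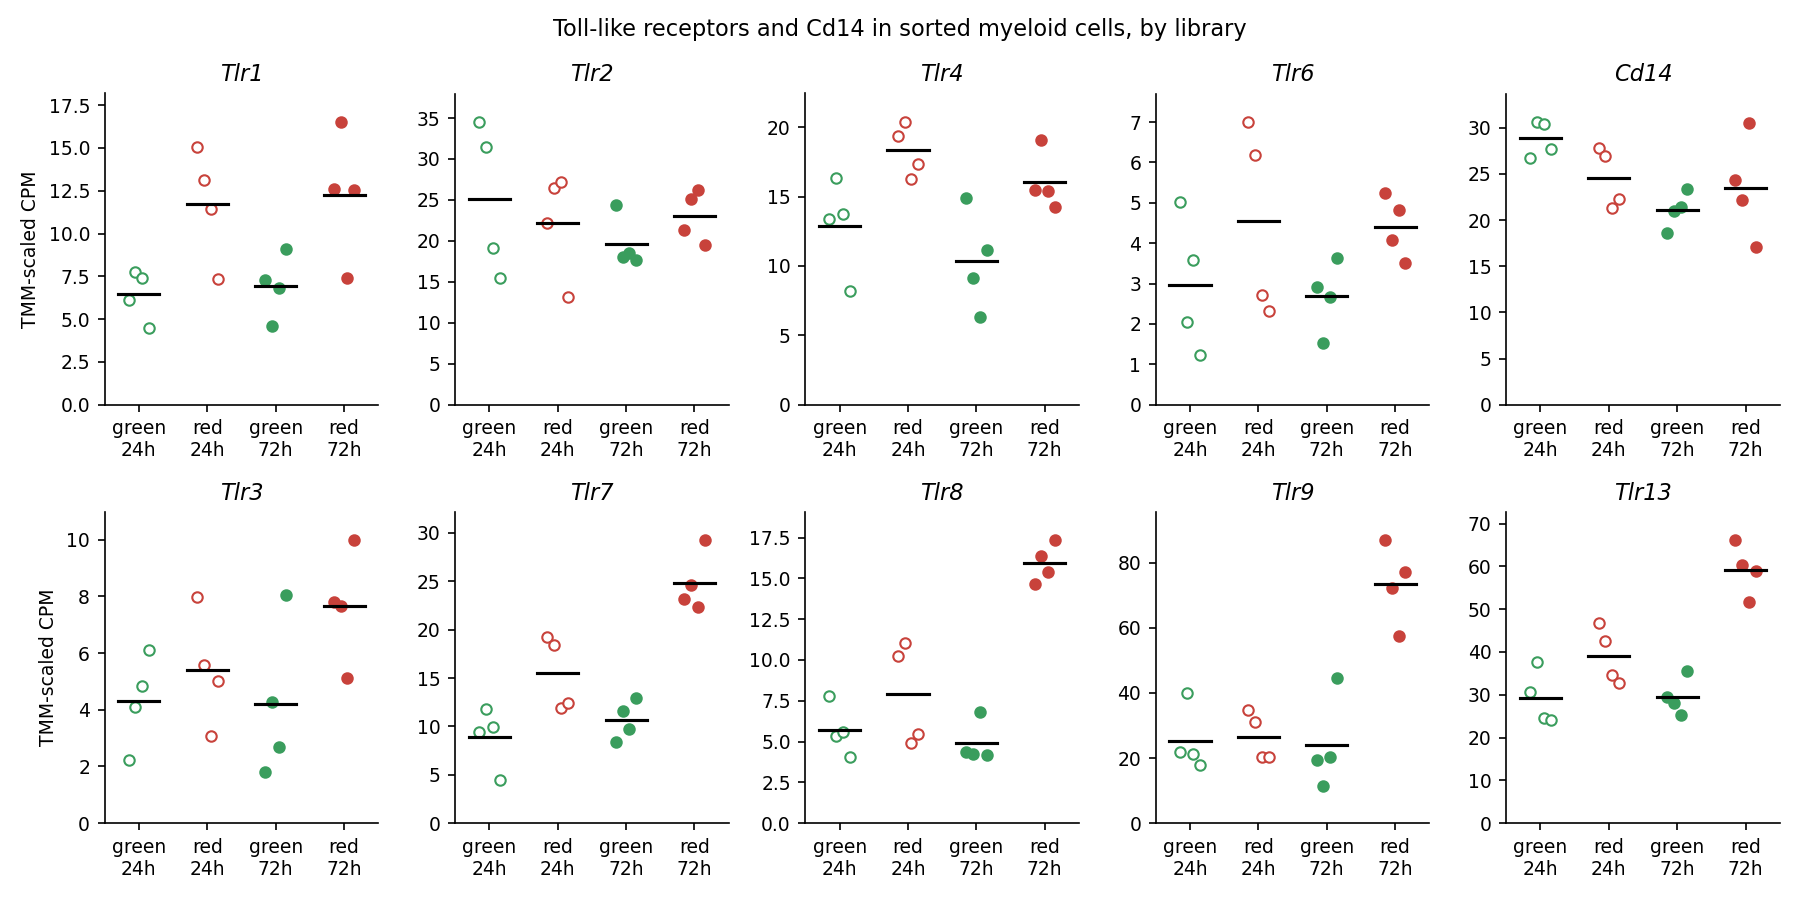
TMM-scaled CPM of each gene (y axis, linear, from 0, a scale per panel) in the 16 libraries, with the upper row showing cell-surface receptors and Cd14 and the lower row endosomal receptors. Each point is 1 library, black lines are group means, and open and filled points mark 24h and 72h. The 4 Kaede-red 72h libraries of Tlr7, Tlr8, Tlr9 and Tlr13 lie above each of the other 12. The share of all tested genes for which this holds was not computed.

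Because these differences rest on how libraries of unequal Rn45s content are put on 1 scale, they were repeated under other scalings. When each library was scaled by its counts outside Rn45s alone, the median of all genes moved to 0.82, 61.1% of them were called higher and so were all 10 receptors (median 1.47), Cd14 included (0.70), although Cd14 then lay below that median. With the Rn45s share as a covariate 0 of the 10 were called (median 0.07, all genes 0.07), and 0.529% of all genes were called higher. Since that share and the colour moved together, their parts cannot be told apart. Without the 3 libraries that stood apart in Rn45s share, 8 of the 10 were called higher, against 9.37% of all genes.

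A ratio of 2 genes within a library does not depend on its scaling, and 5 such ratios were compared between the colours by exact permutation tests (two-sided, colours relabelled within each time), adjusted over the 5. Cd14 counts relative to Tlr4 counts were lower in Kaede-red cells. The log2 ratio was 0.99, 0.90, 1.13 and 1.74 in Kaede-green and 0.52, 0.40, 0.39 and 0.36 in Kaede-red libraries at 24h, with no overlap. At 72h it was 0.31, 1.19, 1.74 and 1.06 in Kaede-green and 0.65, 0.21, 0.98 and 0.26 in Kaede-red libraries, which overlapped. The mean difference was -0.66 (exact permutation p = 0.00571, adjusted p = 0.0163), but without the 3 libraries that stood apart in Rn45s share the adjusted exact p was 0.0667.

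Tlr2 relative to Tlr4 was also lower in Kaede-red cells, by a mean log2 difference of -0.57 (exact permutation p = 0.00653, adjusted p = 0.0163). The Kaede-green libraries had ratios of 1.35, 0.94, 0.47 and 0.91 at 24h and 0.70, 0.96, 1.53 and 0.66 at 72h. The Kaede-red libraries had 0.19, 0.37, 0.73 and -0.40 at 24h and 0.47, 0.40, 0.77 and 0.45 at 72h, and the colours overlapped in 1 or more libraries at each time. Both of these ratios have Tlr4 as their denominator. The ratios Tlr1/Tlr6, Tlr7/Tlr8 and Tlr7/Tlr9 did not pass, with mean differences of 0.17, -0.02 and 0.08 and adjusted exact p-values of at least 0.878.

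**Figure D3:**
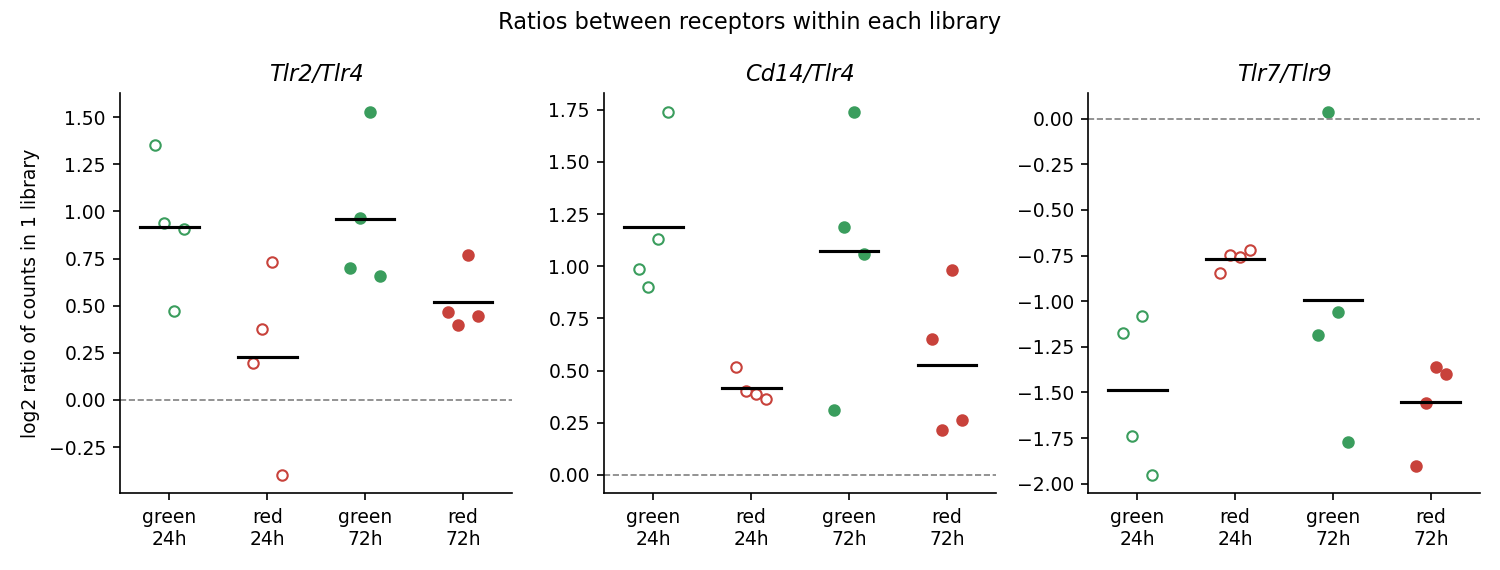
Log2 ratio of the counts of 2 genes in the same library (y axis) for Tlr2/Tlr4, Cd14/Tlr4 and Tlr7/Tlr9 in the 4 groups. Each point is 1 library, black lines are group means, the dashed line marks equal counts, and open and filled points mark 24h and 72h. Cd14/Tlr4 has a mean of 0.42 in Kaede-red and 1.19 in Kaede-green libraries at 24h.

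At 24h alone, 0 of the 10 genes were called, against 3.20% of all tested genes called higher and 4.30% lower. By unadjusted p under 0.05 the number was 4, beside 2013 of the 9642 genes tested. DESeq2 called 1, Tlr7, and 4.09% of all genes higher. Tlr7 had the smallest p of the 10 (log2 difference 0.79 ± 0.26, edgeR, adjusted p = 0.0543) and was the 1 gene of the 10 without overlap upwards, as 7.07% of all genes were (5.44% downwards). Tlr9 differed by 0.08 ± 0.29 between the colours at this time (edgeR, adjusted p = 0.916), with a 95% interval from -0.51 to 0.67. Of the others, Tlr1 had 0.84, Tlr6 0.65, Tlr4 0.51, Tlr8 0.50, Tlr13 0.43 and Tlr3 0.31, and Tlr2 (-0.17) and Cd14 (-0.23) were below 0.

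At 72h, 5 of the 10 were called higher and 0 lower, against 8.07% of all genes called higher and 8.76% lower. Tlr8 was 3.22-fold higher in Kaede-red cells (log2 1.69 ± 0.28, edgeR, adjusted p = 6.03e-05) and Tlr9 was 3.05-fold higher (log2 1.61 ± 0.29, edgeR, adjusted p = 0.00013). Tlr7 (log2 1.22 ± 0.24, edgeR, adjusted p = 0.000445) and Tlr13 (log2 1.00 ± 0.19, edgeR, adjusted p = 0.000367) followed. These 4 endosomal receptors were also the genes without overlap between the colours, as 13.0% of all genes were upwards and 9.52% downwards. Tlr1 was called with 0.84 ± 0.28 (edgeR, adjusted p = 0.0336), a call that was lost in 6 of the 16 fits that left out 1 library, with the largest adjusted p, 0.149, when Kaede-green 72h replicate 2 was left out.

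The remaining genes were not called at 72h. Tlr3 had a difference of 0.86, Tlr6 of 0.69, Tlr4 of 0.65, Tlr2 of 0.23 and Cd14 of 0.14. With the Rn45s share as a covariate none of the 10 was called at 72h, and 0.28% of all genes were called higher. In that fit the difference of Tlr8 shrank to 1.01 (edgeR, adjusted p = 0.319) and that of Tlr9 to 0.68 (edgeR, adjusted p = 0.554). Without Kaede-green 72h replicate 4, the Kaede-green library with the highest Tlr9 level, the Tlr9 difference at 72h was 2.13.

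**Figure D4:**
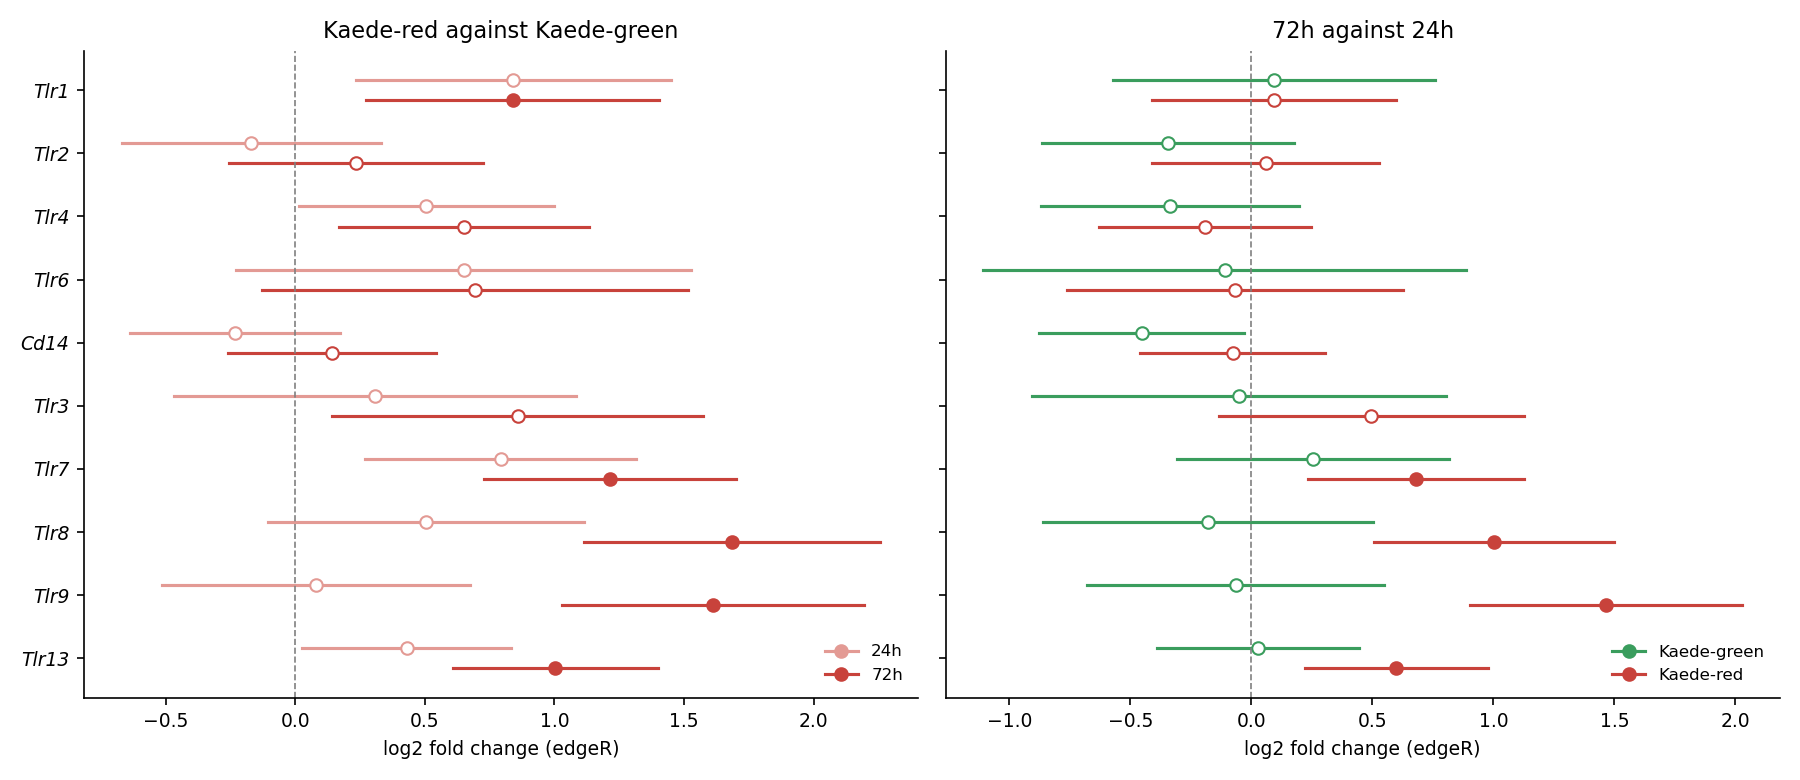
Log2 fold change (x axis) with its 95% interval for each gene, Kaede-red against Kaede-green cells at 24h and 72h on the left, and 72h against 24h in each colour on the right. Filled points passed an adjusted p of 0.05. On the left Tlr1, Tlr7, Tlr8, Tlr9 and Tlr13 are filled at 72h and no gene is at 24h.

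Kaede-red cells at 72h, which had then spent at least 72h in the tumour, differed from those at 24h in the same 4 endosomal receptors. Tlr9 was 2.76-fold higher at 72h (log2 1.47 ± 0.28, edgeR, adjusted p = 0.00166) and Tlr8 was 2.00-fold higher (log2 1.00 ± 0.24, edgeR, adjusted p = 0.00998). Tlr7 (log2 0.68 ± 0.22, edgeR, adjusted p = 0.0482) and Tlr13 (log2 0.60 ± 0.19, edgeR, adjusted p = 0.0405) were also called, so that 4 of the 10 were higher and 0 lower, against 4.91% and 3.76% of all genes. The libraries of all 4 were without overlap, as for 11.8% of all genes upwards and 8.76% downwards. The other 6 genes were not called and lay between -0.19 (Tlr4) and 0.50 (Tlr3).

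The calls of Tlr7 and Tlr13 between the times lay near the threshold, and leaving out single libraries from any of the 4 groups could remove them. Tlr8 lost its call only without Kaede-red 24h replicate 3 or without replicate 4, which had the high Rn45s shares. Leaving out single libraries kept Tlr9 in 16 of 16 fits and Tlr8 in 14, but Tlr13 in 5 and Tlr7 in 4. Without the 3 libraries that stood apart 0 of the 10 were called, in a fit with 2 Kaede-red libraries left at 24h. That fit called 0.0191% of all genes higher, so few genes of any kind passed. Tlr9 stood at 1.13 in it (edgeR, adjusted p = 0.0824).

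In Kaede-green cells no gene of the 10 differed between 72h and 24h, nor was any of the 9642 genes called (0.00%). By unadjusted p under 0.05 the number was 1 of the 10 and 835 of all genes, and DESeq2 called 0 of the 10. That gene was Cd14, which was lower at 72h by -0.45 ± 0.21 (edgeR, adjusted p = 0.534). Its 4 libraries at 72h (18.6 to 23.3 CPM) all lay below the 4 at 24h (26.7 to 30.7 CPM), as 1.09% of all genes did, while 1.90% lay higher without overlap. The highest value among the 10 was that of Tlr7 with 0.25.

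The change of the red-green difference from 24h to 72h was tested as an interaction, in which 0 of the 10 were called, against 0.436% of all genes called upwards and 0.332% downwards. By unadjusted p under 0.05 the number was 3, beside 1471 of the 9642 genes tested. DESeq2 called 1, Tlr9, and 2.13% of all genes upwards. For Tlr9 the red-green difference was larger at 72h by 1.53 ± 0.41 (edgeR, adjusted p = 0.0615). It passed in 3 of 16 fits without 1 library, which were those without Kaede-green 72h replicate 4 (2.04, edgeR, adjusted p = 0.00918), Kaede-green 24h replicate 4 and Kaede-red 24h replicate 1, and also with no filter on low counts (1.59, adjusted p = 0.000556). For Tlr8 the interaction was 1.18 ± 0.42 (edgeR, adjusted p = 0.157) and for Tlr13 it was 0.57 ± 0.28 (adjusted p = 0.316). The count ratio Tlr7/Tlr9 of Kaede-red cells was lower at 72h by -0.79 on the log2 scale (exact permutation p = 0.0286, the smallest that 4 against 4 allow, adjusted p = 0.143 over the 5 ratios), with -0.85 to -0.72 in the libraries at 24h and -1.91 to -1.36 at 72h.

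Of the 4 receptors that rose together in Kaede-red cells, Tlr8, Tlr9 and Tlr13 have an entry in the RefSeq promoter table of assembly GRCm38.p6. Tlr4 and Tlr7 have none there, and Cd14 was left out of the search. The bases before the start site of Tlr8, Tlr9 and Tlr13 are shown, 5′ to 3′ on the strand of the gene. These genes were called both between the colours at 72h and between the times in Kaede-red cells. The capitals mark the core of the site of PU.1, the lineage factor of macrophages (GAGGAA or its reverse complement TTCCTC), and the AP-1 site (TGANTCA), which was searched for on both strands. Tlr9 spans 9:106222598-106226883 on the plus strand of mm10 and is shown from chr9:106222348-106222597. Tlr13 spans X:106143204-106160493 on the plus strand and is shown from chrX:106143025-106143203, ending where the annotated gene starts. Tlr8 spans X:167242696-167264329 on the minus strand and is shown from chrX:167264330-167264579.
Tlr9: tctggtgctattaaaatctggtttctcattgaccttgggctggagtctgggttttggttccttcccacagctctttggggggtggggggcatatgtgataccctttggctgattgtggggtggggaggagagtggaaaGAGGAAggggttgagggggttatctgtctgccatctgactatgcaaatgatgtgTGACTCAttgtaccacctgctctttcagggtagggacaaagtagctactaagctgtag
Tlr13: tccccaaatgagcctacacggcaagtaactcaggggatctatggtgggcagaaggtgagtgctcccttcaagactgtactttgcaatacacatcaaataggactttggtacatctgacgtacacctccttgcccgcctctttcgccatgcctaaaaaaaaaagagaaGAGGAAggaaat
Tlr8: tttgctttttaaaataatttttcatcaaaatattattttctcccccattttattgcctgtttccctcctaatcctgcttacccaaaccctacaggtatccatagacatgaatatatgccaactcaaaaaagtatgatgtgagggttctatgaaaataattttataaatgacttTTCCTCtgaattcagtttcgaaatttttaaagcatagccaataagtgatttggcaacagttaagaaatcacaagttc
Each of the 3 windows of 250 bases held 1 PU.1 core, starting at position -112 from the start site in Tlr9, -83 in Tlr13 and -77 in Tlr8, the last on the opposite strand. The Tlr13 position counts from the start site of the promoter table, which lies inside the annotated gene. Its window ends at base 106143274, so its last bases are not shown and the core stands nearer the end of the printed bases. Of 32851 promoters in that table, 23.3% held it. Of the other members searched, Tlr1, which was also called higher in Kaede-red cells, has 2 windows, 1 with the core at position -23 and 1 without. The windows of Tlr2, Tlr3 and Tlr6 did not hold it. The Tlr3 window, a window of Tlr6 and the Tlr1 window without the core lie wholly inside the annotated gene. Of the 250 bases of the Tlr2 window, 91 lie outside its gene. The lack of the core in these windows therefore does not describe the bases before those genes. The AP-1 letters occurred in Tlr9, at position -58, and in 6.75% of all promoters. These matches are a description of the letters and were not tested.

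The 3 further Toll-like receptor genes of the mouse were scarce. Tlr5, the flagellin receptor, had 0.77 to 5.10 CPM in Kaede-green libraries and 1.93 to 5.97 CPM in Kaede-red libraries and was not called (log2 0.31 ± 0.28, edgeR, adjusted p = 0.471). Tlr11 and Tlr12, which detect profilin of parasites, had too few counts to be tested. Tlr11 had 0 to 1 count in Kaede-green and 0 to 14 counts in Kaede-red libraries, and Tlr12 had 0 to 4 and 0 to 32.

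Beyond the receptors, 58 of 63 listed genes of the pathway could be tested, of which 12 were called higher in Kaede-red cells and 8 lower, with the 2 times combined. Over all tested genes 9.96% were called higher and 10.3% lower. The median log2 fold change of the 58 was 0.16, against 0.06 over all genes. Scaling by counts outside Rn45s turned the balance to 46 higher and 2 lower, while 61.1% of all genes were called higher. With the Rn45s share as a covariate 1 of the 58 was called, and 0.529% of all genes were called higher.

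Among the partners in recognition, 2 of 4 tested genes were higher. Cd36, a scavenger receptor that works with Tlr2 and Tlr6, had 0.82 to 4.90 CPM in Kaede-green libraries and 4.08 to 12.8 CPM in Kaede-red libraries (log2 1.85 ± 0.29, edgeR, adjusted p = 1.79e-05). Cd180, a receptor homologue on macrophages and B cells, was higher by 1.11 ± 0.19 (edgeR, adjusted p = 4.03e-05), and at 72h by 1.60. Ly86, which Cd180 needs at the cell surface, and Ly96, the MD-2 subunit beside Tlr4, were not called (-0.07 and 0.05). Of the 5 genes of receptor folding and transport, 2 were higher. Unc93b1, which carries the nucleic acid receptors to endosomes, had 42.0 ± 7.76 CPM in the Kaede-green and 104 ± 4.19 CPM in the Kaede-red libraries at 72h (SD, n = 4), without overlap (log2 1.31 ± 0.21, edgeR, adjusted p = 4.86e-05). It was also higher in Kaede-red cells at 72h than at 24h, by 0.79. Cnpy3, a co-chaperone of the receptors, was higher by 0.94 over both times.

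The genes of signal transduction were mostly not called, as were most genes tested. Of 5 tested adaptors, Pik3ap1, which couples the receptors to phosphoinositide kinase, was higher (0.74 ± 0.16, edgeR, adjusted p = 0.000686), and Myd88 was not called (-0.03). Of 16 kinases and ubiquitin ligases, Tab2, which links ubiquitin chains to the kinase TAK1, was higher by 0.97 and the ubiquitin ligase Peli1 was lower (log2 -0.43). Among 8 transcription factors, Jun was higher by 0.57 and Fos lower (log2 -0.52). At 72h alone Irak1 (0.97), Rela (0.75) and Nfkb1 (0.70) were called higher as well. Of 9 tested negative regulators, Tnip1, a partner of the NF-κB inhibitor A20, was higher by 0.70 and Tollip by 0.57, and Il1rl1, the interleukin 33 receptor, was lower (log2 -0.72). At 24h Socs1, a feedback inhibitor of cytokine signalling, was lower (log2 -1.02). Scaling by counts outside Rn45s turned Peli1 (0.33), Fos (0.25) and Il1rl1 (0.024) upwards. Of these calls, Tollip passed in 3, Il1rl1 in 6, Socs1 in 7, Irak1 and Rela in 10, Nfkb1 in 11 and Peli1 in 12 of 16 fits without 1 library. In Kaede-red cells from 24h to 72h, 7 of the 58 tested pathway genes were called higher and 3 lower, against 4.91% and 3.76% of all genes. Tnip1 (1.13), Irak3 (1.06), Pik3ap1 (0.84) and Nfkb1 (0.79) were among those higher, and Cxcl2 (-1.75) among those lower. The 10 calls fell to 1 higher and 2 lower without Kaede-red 24h replicate 4, and likewise without Kaede-red 72h replicate 1. Without Kaede-red 24h replicate 3 they fell to 2 higher and 2 lower.

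Genes that Toll-like receptor signalling is known to induce went both ways. Of 11 tested, 3 were called higher in Kaede-red cells and 5 lower, beside 9.96% and 10.3% of all genes. Il6 had 5.19 to 15.6 CPM in Kaede-green libraries and 0.26 to 3.02 CPM in Kaede-red libraries, without overlap (log2 -3.33 ± 0.34, edgeR, adjusted p = 1.27e-08). The prostaglandin synthase gene Ptgs2 (log2 -1.15) and Il1b (log2 -0.93) were lower too, and Cxcl10 was lower at 24h (log2 -1.02). Scaled by counts outside Rn45s, Il6 was still called lower, and Il1b was no longer called (log2 -0.17, edgeR, adjusted p = 0.279). With the Rn45s share as a covariate Il6 was not called (log2 -1.90, edgeR, adjusted p = 0.0639). Neither were Ptgs2, Il1b, Tnf, Ccl5 and Il12b in that fit, which called 0.529% of all genes higher. Tnf was higher by 0.72 ± 0.18 (edgeR, adjusted p = 0.00467), with 3.64 to 6.54 CPM in Kaede-green libraries and 7.65 to 10.5 CPM in Kaede-red libraries. Ccl5 was higher by 0.69. Il12b was called higher on very few counts, 0 to 2 per Kaede-green and 0 to 39 per Kaede-red library, and its fitted fold, drawn in the plot of pathway genes, depends on the prior count and is not given here.

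**Figure D5:**
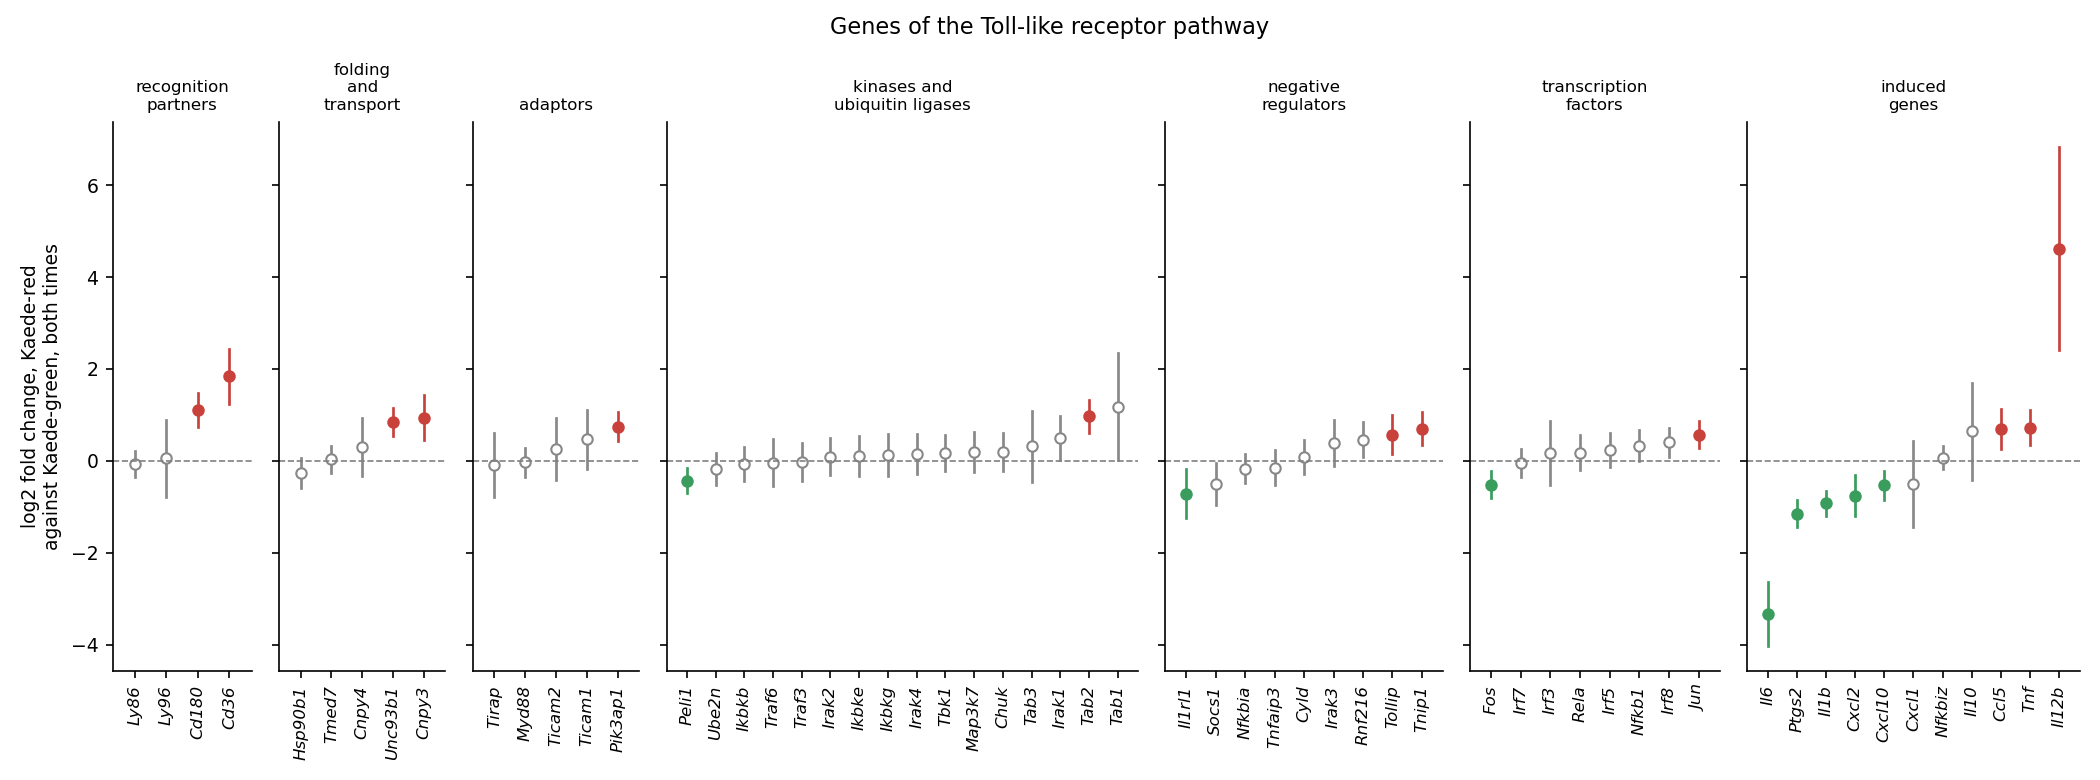
Log2 fold change between the colours, red over green, with 24h and 72h combined (y axis), with its 95% interval for the 58 tested pathway genes, grouped by role. Red points were called higher, green points lower and open grey points were not called. The group of induced genes holds 3 red and 5 green points.

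Most markers of the sorted cells were higher in Kaede-red cells, as most of the receptors were. Adgre1, which encodes F4/80, was higher in Kaede-red cells by 1.53 (edgeR, adjusted p = 8.19e-09), Cd68 by 1.14, Csf1r by 0.95 and Itgam by 0.44, and Lyz2 was lower (log2 -1.25), so that 4 of 6 were higher and 1 lower. Csf1r rose from 49.1 ± 15.8 CPM in Kaede-red cells at 24h to 106 ± 2.11 CPM at 72h (SD, n = 4), in parallel with Tlr9. Itgam and Ptprc were also called higher between these times, while Adgre1, Cd68 and Lyz2 were not called. Of all genes, 4.91% were called higher in that comparison. In sorted bulk cells, fewer cells of a type and less RNA per cell cannot be told apart, and the part of these markers in the receptor differences was not tested.

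Cell types known for high Tlr7 and Tlr9 were scarcely seen. The markers of plasmacytoid dendritic cells Siglech, Ccr9 and Cox6a2 had 0 counts in each of the 8 Kaede-green libraries and at most 1, 3 and 5 counts, in that order, in a Kaede-red library. Their list summed to 3.96 to 7.52 CPM in Kaede-green libraries and 3.93 to 12.4 CPM in Kaede-red libraries, through Tcf4. The B cell marker list summed to 0 to 2.45 CPM in Kaede-green libraries and 0 to 1.66 CPM in Kaede-red libraries. Type 1 dendritic cell markers summed to 0.41 to 3.68 and 1.09 to 4.24 CPM. Neutrophil markers summed to 8.58 to 12.2 CPM in Kaede-green libraries and 9.05 to 22.3 CPM in Kaede-red libraries, and S100a8 had at most 1.56 CPM. At 72h they summed to 17.8 to 22.3 CPM in Kaede-red and 10.4 to 12.2 CPM in Kaede-green libraries, without overlap. In Kaede-red libraries at 24h the sum was 9.05 to 14.3 CPM. Of 2 tested genes 1, Csf3r, was called higher in Kaede-red cells over both times, at 72h, and from 24h to 72h. The fibroblast list was lower in Kaede-red libraries (10.7 to 34.9 CPM, against 38.8 to 49.8 CPM), with 3 of 3 tested genes called lower. The endothelial list summed to 17.7 to 36.6 CPM in Kaede-red and 9.75 to 19.0 CPM in Kaede-green libraries, with Kdr and Pecam1 called higher and Cdh5 called lower. The part of these markers in the receptor differences was not tested.

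The genes whose levels followed the called receptors most closely over the 16 libraries were found by the smallest root mean square difference of centred log2 CPM. For Tlr13 they were Gnai2, Psap and Plekho2 (0.15 to 0.17), and for Tlr9 they were Laptm5, Csf1r and Ucp2 (0.29 to 0.33). Tlr7 was followed by H2-Eb1, Slc43a2 and Ptprj (0.22 to 0.23), and Tlr8 by Ap1b1, Lcp1 and Slc7a8 (0.28 to 0.32). Tlr1 was nearest to Slc11a1, Rgs19 and Hexa (0.24 to 0.29), and Tlr4 to Ddx19a, Pqlc3 and Rnf130 (0.24 to 0.25). The 3 genes of each receptor differed from one receptor to the next, and each had a log2 fold change of Kaede-red against Kaede-green cells between 0.39 and 1.16.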

How the data were processed

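The values analysed were whole-number counts per gene symbol as the authors deposited them, without normalization. The submitters' processing notes name Trim Galore, FastQC, HISAT2 and featureCounts, and the build mm10. Versions and the strand setting were not given in the sources used here. Libraries had been made from total RNA with a stranded low-input kit.

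All 16 libraries were fitted together in edgeR 4.0.16 (R 4.3.3) with TMM factors, genes kept by filterByExpr (9642), a mean for each group, the quasi-likelihood test, and Benjamini-Hochberg adjustment over all genes tested. The common dispersion was 0.0702, and standard errors of log2 fold changes between the colours had a median of 0.27 with the times combined (24h alone 0.39, 72h alone 0.36). CPM per kb used the exonic length in GENCODE M21. Log2 CPM used a prior count of 2 and count ratios a pseudocount of 0.5. Ratios were compared by exact permutation tests over 4900 relabellings (smallest p 0.000408). The fits were tested on simulated data. Replicates of a group differed by more than counting noise (chi-square per gene 3.21 to 95.6 over 24 pairs), so none was a copy.

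The alternatives were DESeq2 1.42.0, RLE factors, scaling by counts outside Rn45s, no filter, at least 10 counts in every library, the Rn45s share as covariate, a replicate block, only the groups compared, leaving out each library and, chosen after the depths were seen, leaving out the 3 libraries of overlapping Rn45s share. The genes named were all members, Tlr5, Tlr11 and Tlr12, up to 3 called genes each way per pathway list over both times and up to 2 in the other comparisons, and 3 genes of closest pattern per called member. The members and lists were chosen with earlier results of these data known.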

Additional observations from a re-analysis of the deposited data

Results flagged for a closer look

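Each of the 10 genes was examined for a library far from the other 3 of its group, by Dixon's ratio of the gap to the range on the log2 CPM scale, against its 95% critical value for groups of 4. Of the 40 groups 2 were above it, where chance gives about 1 in 20. Tlr8 in Kaede-green 72h replicate 3 had 6.81 CPM, against 4.15 to 4.37 CPM in the other 3 libraries (ratio 0.895). Tlr2 in Kaede-green 72h replicate 1 had 24.4 CPM, against 17.6 to 18.5 CPM in the others (ratio 0.857). Both are in Kaede-green cells at 72h, in different libraries, and the cause was not tested.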

How the results depend on the processing

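DESeq2, RLE factors, the filter of 10 counts (which left 8 of the members tested) and the replicate block kept 6 genes called over both times. No member was called lower in any fit. Of all genes, 11.2, 9, 22 and 9.38% were called higher in these fits, in that order. Counts of called genes moved as follows. Scaling by counts outside Rn45s gave 10 over both times, 10 at 24h, 10 at 72h and 2 for Kaede-red cells between times, while 61.1, 47.4, 34.4 and 2.17% of all genes were called higher. The Rn45s share as covariate gave 0 over both times, 0 at 72h and 1 for Kaede-red cells between times. Of all genes, 0.529, 0.28 and 0.799% were then called higher. At 24h DESeq2 and no filter gave 1 each, the filter of 10 counts gave 4 of 8 and leaving out the 3 libraries of overlapping Rn45s share gave 2. In that order, 4.09, 1.61, 9.37 and 2.22% of all genes were called higher. For Kaede-red cells between times RLE factors gave 2 (3.88% of all genes called higher) and leaving out those 3 libraries gave 0 (0.0191%). For the interaction DESeq2 and no filter gave 1 each, while 2.13 and 0.504% of all genes were called upwards. Leaving out single libraries gave 5 to 7 over both times, 0 to 2 at 24h, 4 to 6 at 72h, 1 to 4 in Kaede-red and 0 in Kaede-green cells between times, and 0 to 1 for the interaction.

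Values that changed sign were mostly of genes without a call. With the covariate over both times they were Tlr2 -0.089, Tlr3 -0.25, Tlr6 -0.060, Tlr9 -0.017 and Il1rl1 0.036. At 24h they were Tlr3 -0.44, Tlr6 -0.062, Tlr8 -0.063 and Tlr9 -0.71, and at 72h Tlr3 -0.065 and Tlr6 -0.058. Scaling outside Rn45s gave Cd14 0.70, Peli1 0.33, Il1rl1 0.024 and Fos 0.25 over both times, and Tlr2 0.75 and Cd14 0.65 at 24h. Cd14 over both times was 0.070 with no filter, 0.034 with the filter of 10 counts and 0.064 without the 3 libraries. When single libraries were left out, Tlr2 ranged from -0.066 to 0.13 and Cd14 from -0.099 to 0.017 over both times, and Tlr2 from -0.35 to 0.027 and Tlr9 from -0.069 to 0.41 at 24h.

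The ratios Tlr2/Tlr4 and Cd14/Tlr4 passed in 16 of 16 fits without 1 library (-0.65 to -0.46 and -0.79 to -0.55). They missed the threshold at 24h alone (-0.69 and -0.77, adjusted exact p = 0.0952 and 0.0714) and at 72h alone (-0.44 and -0.55, both 0.238), and Cd14/Tlr4 also without the 3 libraries (-0.64). Tlr7/Tlr8 was 0.023 with a pseudocount of 2 and 0.44 at 24h alone (-0.12 to 0.071 without single libraries). Tlr7/Tlr9 was -0.56 at 72h alone and -0.064 without the 3 libraries (-0.049 to 0.25 without single libraries), and Tlr1/Tlr6 was -0.025 without the 3 libraries (0.016 to 0.31 without single libraries). The cause of these changes was not tested.

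The labels do not say that replicate numbers pair libraries, and they were taken as numbers only. The correlation of same-numbered deviations was 0.0493 to 0.153 at 24h, against -0.132 to 0.147 for different numbers. At 72h it was -0.0183 to 0.0287, against -0.0556 to 0.0595. These values do not settle whether the libraries were paired. With a replicate block the counts of called genes were 6 over both times, 0 at 24h, 4 at 72h, 4 and 0 between times and 0 for the interaction. Of all genes, 9.38, 2.81, 7.86, 5.2, 0 and 0.519% were called higher, in that order. The 2 ratios that passed had a paired difference of -0.57 and -0.66 with an adjusted exact p of 0.0781 each.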
